A study of Felis catus with 36 samples.

Results

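Gene expression in left ventricle (LV) was compared with that in skeletal muscle (SKM) of sham-operated cats, 1 month after the operation. The 6 libraries, 3 of LV and 3 of SKM, were all those labelled SHAM at 1 month, out of 36 in the series. All 6 came from the control condition, since sham animals had no aortic banding, the narrowing of the aorta with which the series models heart failure with preserved ejection fraction (HFpEF) in the cat. Other groups used below were sham animals at 4 months and animals with aortic banding at either time, each with 5 LV and 5 SKM libraries. The labels give no age, sex or breed, do not name the muscle sampled, and do not say whether libraries of a tissue came from separate animals or whether LV and SKM libraries with the same number came from the same animal. P-values therefore measure the spread between these libraries, which may be technical in part.

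Both tissues are striated and contract through sarcomeres driven by calcium release. They are known to use partly different isoforms of the contractile, calcium-handling and channel proteins. Heart muscle is made of coupled cardiomyocytes that beat without pause and burn mainly fatty acids, whereas skeletal muscle is made of fused, multinucleate fibres that range from slow and oxidative to fast and glycolytic. The deposited counts name genes by Ensembl identifiers. None of the 26681 identifiers could be joined to a symbol, so the results are given by level, size and reproducibility of the difference, and the tissue labels could not be checked against marker genes. Whole tissue was sequenced, so a lower level can come from fewer cells of a type or from less RNA per cell, which cannot be told apart.

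Gene counts were 18.7 M, 19.0 M and 18.1 M (M for 1000000) in LV libraries 1, 2 and 3, and 21.5 M, 26.6 M and 27.2 M in the SKM libraries of the same numbers. Genes with at least 1 count numbered 15910 to 16211 in LV and 15625 to 15852 in SKM. The share of all counted lines assigned to a gene was 52.8% to 54.9% in LV and 56.3% to 71.7% in SKM, with SKM library 1 the lowest of its tissue. On log2 CPM (counts per 1000000 gene counts, scaled between libraries with edgeR's trimmed mean of M values, or TMM), the first principal component held 81.2% of the variance and separated the tissues. LV library 2 stood apart from LV libraries 1 and 3 on the second component. Of the LV libraries it also lay nearest to SKM on the first, at -85.7, where libraries 1 and 3 lay at -102.0 and -104.8. Its correlation with LV libraries 1 and 3 across 13065 genes was 0.941 and 0.924, against 0.977 between those 2, and SKM libraries correlated with each other at 0.959 to 0.982. LV library 2 was more than 2-fold above both other LV libraries in 1297 genes and more than 2-fold below both in 603. The same counts for the other 5 libraries ran from 50 to 215 above and from 81 to 367 below. The median standard deviation of log2 CPM between libraries was 0.36 in LV (0.17 without library 2) and 0.24 in SKM.

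**Figure D1:**
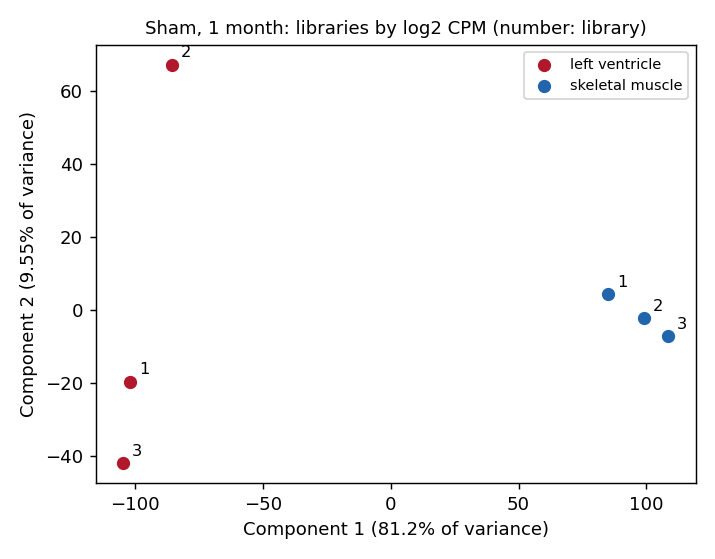
The 6 sham 1-month libraries are placed by the first 2 principal components of log2 CPM, with the share of variance on each axis and library numbers beside the points. LV libraries lie to the left and SKM libraries to the right on component 1, and LV library 2 lies above LV libraries 1 and 3 on component 2.

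A smaller part of LV counts than of SKM counts fell on the top genes. The 10 most abundant genes of each library, by counts not scaled for gene length, held 16.32%, 17.004% and 20.27% of the gene counts in LV and 27.6%, 33.3% and 34.4% in SKM. All 3 LV libraries lay below all 3 SKM libraries, with means of 17.9% ± 2.11 in LV and 31.8% ± 3.63 in SKM (SD, n = 3 each). The exact two-sided permutation test gave p = 0.1, the smallest value that 3 libraries against 3 allow, so this test cannot reach 0.05 here. The same test gave 0.1 for each of the 6 library measures compared, and 0.1 after Benjamini-Hochberg correction over them. Of the 10 most abundant genes, 7 were common to all LV libraries and 7 to all SKM libraries, and 2 were common to all 6. Among the 100 most abundant, 65 were common to the LV libraries, 74 to the SKM libraries and 27 to all 6.

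Which genes differ between the tissues was tested with edgeR's quasi-likelihood test on the counts of 13065 genes that passed its low-count filter. At an adjusted p under 0.05, 4729 genes differed, which is 36.2% of those tested, with 2468 higher in LV (18.9%) and 2261 lower (17.3%). A second call asked for a difference beyond 2-fold (edgeR's glmTreat, adjusted p under 0.05) and held 1737 genes, 13.3% of those tested, with 853 higher in LV (6.53%) and 884 lower (6.77%). In all of these 1737 genes the LV and SKM libraries did not overlap, against 51.4% of all genes tested. The same libraries made the call, which nearly ensures this. The first count rested on single libraries, with 7100 genes without LV library 2 and 2853 without SKM library 2. Without LV library 2 the call beyond 2-fold held 2745 genes, which included 1707 of the 1737 in the same direction (98.3%). The share of the 1737 still called was lower with any other library left out, at 78.5% without LV library 1, 84.7% without LV library 3, and 85.4%, 71.7% and 76.1% without SKM libraries 1, 2 and 3.

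Among the scalings tried, the balance of higher and lower genes moved most with library totals alone. The median log2 fold change of all genes was 0.06 with TMM and 0.80 when libraries were scaled by their total counts alone. With totals alone 6200 of 7189 called genes were higher in LV, 86.2%, against 52.2% with TMM. This share was 50.4% with relative log expression scaling and 55.7% with upper quartile scaling. Of the 884 genes called lower in LV beyond 2-fold with TMM, 565 were also called lower beyond 2-fold with totals alone. With relative log expression scaling 884 were, and with upper quartile scaling 837.

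Differences beyond 2-fold reached far in both directions. Their median log2 fold change was 3.08 among genes higher in LV and -3.21 among genes lower in LV. Among the genes higher in LV, 38 had 0 counts in all 3 SKM libraries, and among those lower in LV, 46 had 0 counts in all 3 LV libraries. The medians were the same with these genes set at the bound that 3 counts over the group of 3 libraries allow. These genes are few, so a median could hardly move, and this says nothing on the size of single fold changes. Among called genes with counts in both tissues, 94 were at least 64-fold higher in LV and 135 at least 64-fold lower by the fitted fold change.

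The most abundant genes were the most often called, mainly as lower in LV. Of 100 genes with a mean of at least 1000 CPM over the 6 libraries, 62 were called at an adjusted p under 0.05 (62%, against 30.6% of genes between 1 and 10 CPM) and 40 beyond 2-fold, 5 of them higher and 35 lower in LV. Their median log2 fold change was -1.39 with TMM and -0.64 with totals alone, where 11 were called higher and 31 lower beyond 2-fold. Between 100 and 1000 CPM, 241 of 1199 genes were called beyond 2-fold, with 66 higher and 175 lower in LV. Between 10 and 100 CPM the directions were near balance, with 355 higher and 373 lower among 6372 genes. Below 10 CPM more genes were higher than lower in LV, 327 and 247 of 4496 genes between 1 and 10 CPM and 100 and 54 of 898 genes under 1 CPM. Below 1000 CPM the directions were counted with TMM only. With totals alone, 2254 genes of any level were called higher and 565 lower beyond 2-fold, so the balance depends on the scaling. These bins use a mean over both tissues, and the standard error (SE) of the fold change was larger for low genes, with a median of 0.55 under 1 CPM and 0.24 between 10 and 100 CPM.

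**Figure D2:**
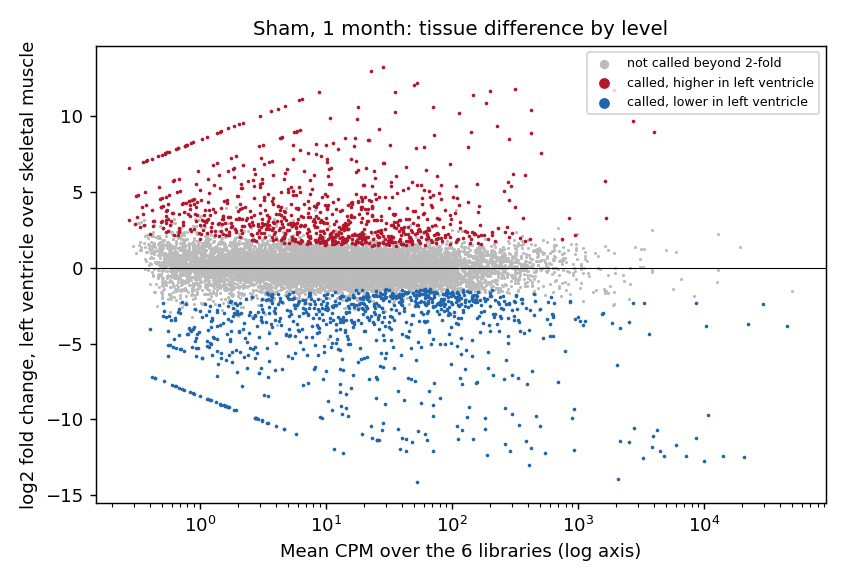
Each point is 1 of 13065 genes, with its mean CPM over the 6 libraries on a log axis and its log2 fold change of LV over SKM. Genes called beyond 2-fold are coloured, 853 higher and 884 lower in LV. Above 1000 CPM most coloured points lie below 0. The straight lines of points at the far left are genes with 0 counts in 1 tissue. Such genes also lie farther right, up to a gene with 0 CPM in LV and a mean of 105.9 CPM in SKM. Wherever they lie, their fitted fold change depends on the prior count and is no estimate.

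Named genes were the most abundant of those called beyond 2-fold with a fitted fold of at least 8 and counts in every library, of which there were 308 higher and 344 lower in LV. The files give no name or function for them, so genes that share reads with a near-identical copy could not be marked. ENSFCAG00000004613 had 8426, 6133 and 9366 CPM in LV libraries 1, 2 and 3, against 15.8, 20.4 and 11.5 CPM in the SKM libraries. It ranked between 5th and 9th by counts in the LV libraries and between 5097th and 6841st in the SKM libraries. LV over SKM gave 8.97 on the log2 scale (SE 0.50, with an edgeR adjusted p of 1.33e-05).

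ENSFCAG00000005627 had 5189, 3224 and 7922 CPM in LV libraries 1, 2 and 3, against 13.4, 5.44 and 1.17 CPM in the SKM libraries. All LV libraries were far above all SKM libraries, and the level varied more between the SKM libraries, where it rested on 248, 109 and 23 counts. The difference was 9.67 on the log2 scale (SE 1.08, with an edgeR adjusted p of 0.000454).

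ENSFCAG00000030433 was high in both tissues and higher in SKM. It had 5169, 6439.5 and 6323 CPM in LV libraries 1, 2 and 3, against 76615, 90918 and 91189.8 CPM in the SKM libraries. It was the most abundant gene by counts in SKM libraries 1 and 3 and ranked 2nd in SKM library 2, while it ranked 8th to 12th in LV. LV over SKM gave -3.85 on the log2 scale (SE 0.42, with an edgeR adjusted p of 0.000431), which makes it 14.4-fold higher in SKM.

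ENSFCAG00000010564 separated the tissues most widely among these 4 genes. It had 8.83, 6.25 and 6.91 CPM in LV libraries 1, 2 and 3, against 17425, 38623 and 69053 CPM in the SKM libraries. The LV libraries were close to each other, and SKM library 1 was the lowest and library 3 the highest of its tissue. The difference was -12.47 on the log2 scale (SE 0.85, with an edgeR adjusted p of 3.91e-05). Over the alternatives tried, the highest adjusted p of these 4 genes was 0.00592, and all of them kept their direction.

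**Figure D3:**
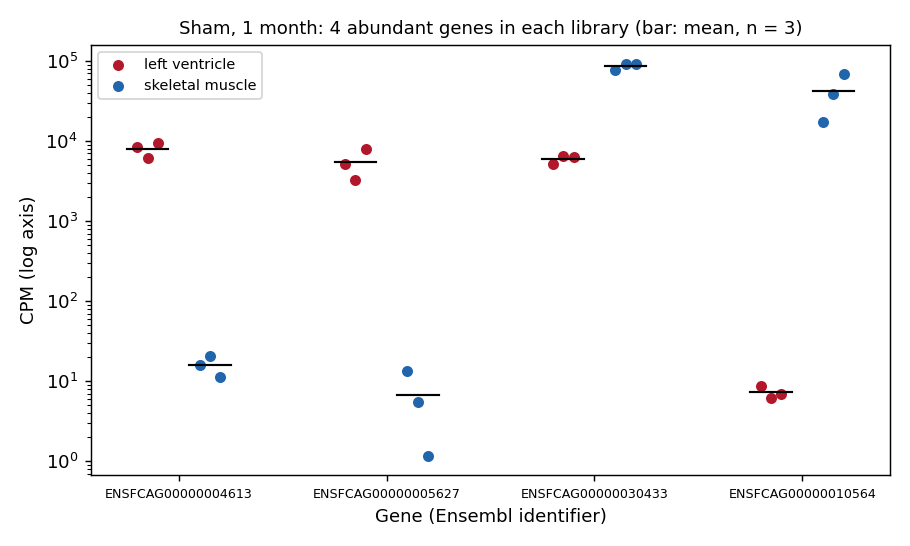
CPM of the 4 named genes on a log axis in each sham 1-month library, LV left of SKM for each gene, with points in order of library number and a bar at the mean of 3 libraries. The first 2 genes lie higher in every LV library and the last 2 lie higher in every SKM library.

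Few genes were confined to 1 tissue at this depth. With at least 1 CPM in all 3 libraries of a tissue and at most 0.1 CPM in all 3 of the other, 39 genes were restricted to LV and 78 to SKM. The order turned with the scaling, with 68 restricted to LV and 47 to SKM when CPM were taken from library totals alone. The ceiling of 0.1 CPM is not the same in counts for both tissues. With TMM it allows more counts in an LV than in an SKM library, and with totals alone it allows fewer. How much of either order comes from this was not tested. All of the 39 and 78 genes restricted with TMM were among the genes called beyond 2-fold, which the criterion nearly ensures. Of the LV-restricted genes, 18 had 0 counts in every SKM library, and of the SKM-restricted genes, 33 had 0 counts in every LV library. A count of 0 allows up to 0.0516 CPM over the 3 SKM libraries and 0.0414 CPM over the 3 LV libraries, by counting error alone. The restricted genes were mostly of low level, with a median of 8.30 CPM in LV for the LV-restricted and 6.92 CPM in SKM for the SKM-restricted genes, and highest means of 104.8 and 223.8 CPM. They held 0.0867% of LV counts and 0.173% of SKM counts on average. Without LV library 1 or 2 the number restricted to LV was 60 or 66. Every library must pass the criterion, so leaving any library out loosens it.

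By contrast, genes called beyond 2-fold held a large share of SKM counts. Genes called higher in LV held 9.97%, 9.90% and 8.97% of the gene counts in LV libraries 1, 2 and 3, against 0.751%, 0.542% and 0.451% in the SKM libraries. Genes called lower in LV held 5.32%, 6.08% and 4.72% in the LV libraries, against 37.7%, 46.9% and 51.7% in the SKM libraries. SKM library 1, the shallowest of its tissue, had the lowest share of SKM-biased and the highest share of LV-biased counts among SKM libraries. These libraries chose the genes, so their shares are a description. In the 15 LV and 15 SKM libraries that took no part in the choice, the genes higher in LV held 8.998% to 10.9% of LV counts and 0.41% to 0.883% of SKM counts. The genes lower in LV held 4.57% to 6.56% of LV counts and 36.6% to 51.5% of SKM counts, so no LV library overlapped an SKM library in either list.

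**Figure D4:**
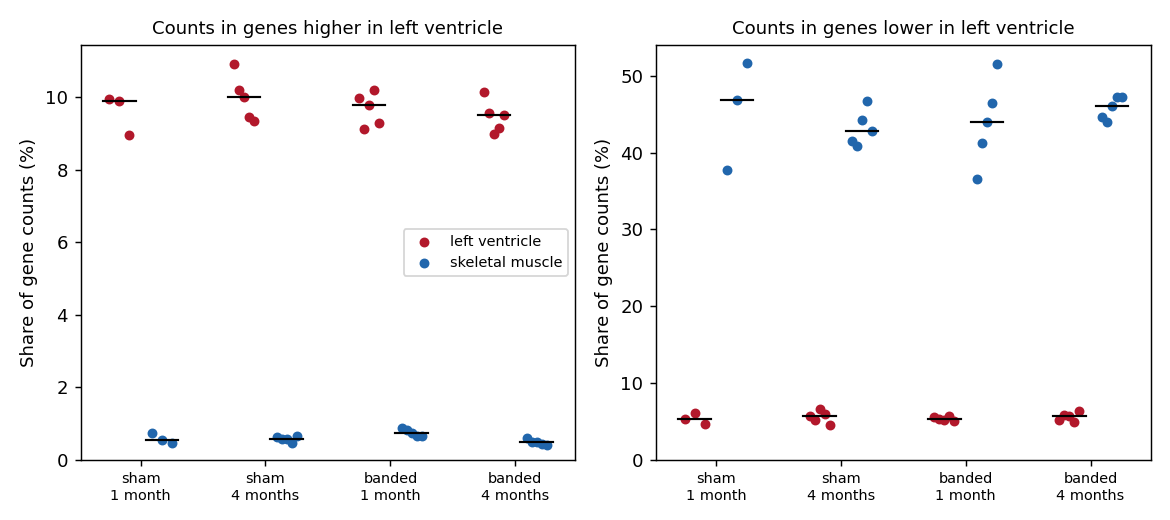
Share of gene counts, in percent, held by genes called beyond 2-fold higher (left panel) or lower (right panel) in LV at sham 1 month, in each of the 36 libraries, with a bar at the group median. LV points lie between 8.97% and 10.9% in the left panel and SKM points between 36.6% and 51.7% in the right panel, in the groups that chose the genes and in those that did not.

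The tissue calls were then looked for in the other groups, which share no library with the 6 and were each fitted alone with edgeR. In sham at 4 months 8723 of 12988 genes were called between the tissues (67.2%), in banded at 1 month 7609 of 13357 (57%) and in banded at 4 months 8731 of 12920 (67.6%). These groups have 5 libraries a tissue, so their counts of calls are not comparable with the count at sham 1 month. Of the 4729 genes called at sham 1 month, 4055 were called in the same direction at sham 4 months (85.7%) and 29 in the opposite one. At banded 1 month 4242 were called in the same direction (89.7%) and 1 in the opposite one, and at banded 4 months 3966 (83.9%) and 46. The shared genes were 46.5% of the calls at sham 4 months, 55.7% at banded 1 month and 45.4% at banded 4 months. Across genes, which are not independent replicates, log2 fold changes of LV over SKM correlated between sham 1 month and these groups at 0.910 over 12628 genes, 0.960 over 12919 genes and 0.890 over 12597 genes. Of the 853 genes higher in LV beyond 2-fold, 768 were called higher at sham 4 months (34.2% of all genes tested there were), 810 at banded 1 month (28.2%) and 768 at banded 4 months (35%). Of the 884 lower, 779, 832 and 762 were called lower in the same order, where 32.9%, 28.7% and 32.6% of all genes tested were. Without SKM library 2, where 2853 genes were called at sham 1 month, 2535, 2689 and 2503 of them were repeated in the same order. Without LV library 2, where 7100 genes were called, 5292, 5376 and 5230 were repeated. That is a smaller share in each group than with all 6 libraries.

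The size of the tissue difference was then set beside that of the other groups. Over genes tested in both, the median size of the log2 fold change was 0.63 at sham 1 month and 0.80 at sham 4 months, and 0.63 at sham 1 month and 0.85 at banded 4 months. Against banded 1 month the medians were 0.64 at sham 1 month and 0.58 at banded 1 month. No test was run on these medians.

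Whether the tissue difference of single genes at sham 1 month differed from that at sham 4 months was tested in a fit of all 36 libraries. Of 14579 genes, 1211 differed at an adjusted p under 0.05 with edgeR (8.31%). For 658 of them (4.51%) LV minus SKM was higher at 1 month, and for 553 (3.79%) it was lower. This split turned with the scaling, with 503 higher and 649 lower at 1 month under relative log expression scaling and 482 higher and 648 lower under upper quartile scaling. In 628 of the 1211 genes the tissue difference had the same sign at both times and was smaller at 1 month. In 100 it had the same sign and was larger at 1 month, and in 483 the fitted sign was opposite. These 3 numbers are given only for TMM scaling with all 36 libraries, LV library 2 included. Of the 483, 68 were called between the tissues at both times in the same fit. The median size of the change in the tissue difference was 1.24 on the log2 scale. Of the 1737 genes called beyond 2-fold at sham 1 month, 176 were among the 1211 (10.1%). The count moved with single libraries and with the fit. It was 2086 without LV library 2, 716 without LV library 1, 739 without LV library 3, 772 without SKM library 2 and 661 without SKM library 3 of sham 1 month, and 690 when the 20 banded libraries were left out of the fit. The labels give no sequencing date or batch, so time and a possible batch cannot be told apart.

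**Figure D5:**
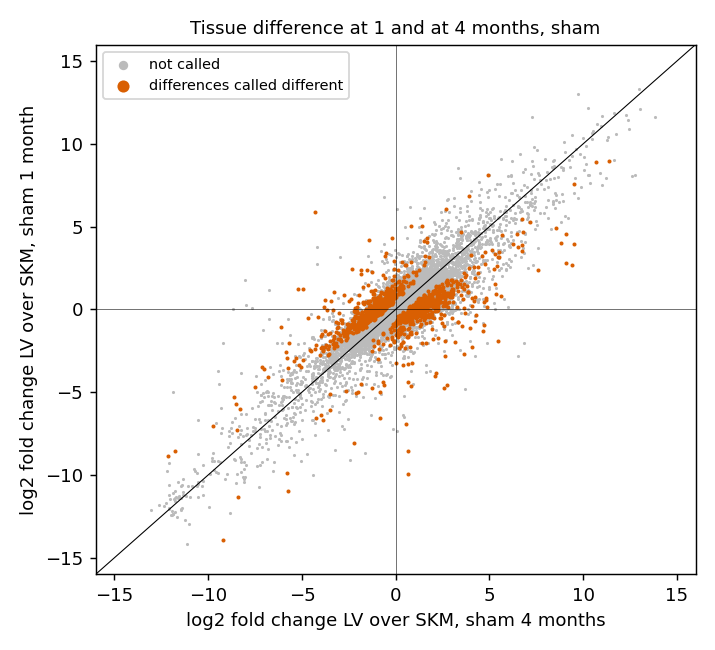
Each point is 1 of 14579 genes, with its log2 fold change of LV over SKM at sham 1 month on the vertical axis and at sham 4 months on the horizontal axis, from the fit of all 36 libraries. The line marks equal differences. The 1211 coloured genes lie off the line, with 628 of the same sign and nearer to 0 at 1 month and 100 of the same sign and farther from 0.

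For the named genes, ENSFCAG00000004613 differed in this test, with a tissue difference lower at sham 1 month than at sham 4 months by a log2 value of -2.37 (adjusted p 0.0351 with edgeR). At sham 4 months it had 7331 to 11499 CPM in LV (median 8306) and 2.03 to 7.50 CPM in SKM (median 2.27), with libraries scaled within that group. At banded 1 month its SKM libraries ran from 9.33 to 172.5 CPM (median 40.1), against 6007 to 8635 CPM in LV. The log2 fold change of LV over SKM was 11.37 (SE 0.52) at sham 4 months, 6.93 (SE 0.76) at banded 1 month and 11.73 (SE 0.31) at banded 4 months. The other 3 named genes did not pass this test, with adjusted p of 0.97 for ENSFCAG00000005627, 0.412 for ENSFCAG00000030433 and 0.754 for ENSFCAG00000010564 with edgeR. Their log2 fold changes at sham 4 months were 9.62 (SE 0.35), -3.35 (SE 0.25) and -11.97 (SE 0.55) in that order.

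Against banded animals of the same time, the tissue difference differed in 0 of 14579 genes with edgeR (0%), with 1133 genes at an unadjusted p under 0.05, where 729 are expected by chance, 13 with DESeq2 and 0 with voom. Without LV library 2 of sham 1 month edgeR called 276 genes, and without LV library 2 of banded 1 month it called 8.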

How the data were processed

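Counts per gene were deposited by the authors, 1 file per library, as whole numbers that were not normalized. HISAT2 2.1.0, HTSeq 0.11.2 and DESeq2 1.22.2 are named in the submitters' processing notes, and per the labels' protocols a TruSeq stranded mRNA kit was used on total RNA. The genome build, annotation and strand setting of the counting are not given in the sources used here, so overlapping and antisense genes are uncertain. Each file holds 26681 genes and 5 summary lines, which were left out of totals and tests.

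Low-count genes were removed with edgeR's filterByExpr, by the groups of each fit. The 6 libraries were fitted with edgeR 4.0.16 under R 4.3.3 (TMM scaling, group means, quasi-likelihood test, two-sided, Benjamini-Hochberg over all genes tested). SEs are the log2 fold change divided by the square root of the F statistic. Log2 CPM used a prior count of 2. Changes of the tissue difference were contrasts of 8 group means over 36 libraries. The fits were tried on simulated counts with known changes in a small set of genes, as many raised as lowered. The simulation therefore did not test the scaling between tissues of unlike composition. Alternatives were DESeq2 1.42.0, limma 3.58.1 voom, other scalings, no low-count filter, other sets of libraries, a block for the library number, and fits that leave 1 library out. No pair of libraries of a tissue differed as little as repeated counts of 1 library would, with a lowest chi-square per degree of freedom of 127.4.

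The 4 named genes were, in each direction, the 2 with the highest mean CPM in the higher tissue among genes called beyond 2-fold with a fitted fold of at least 8 and at least 1 count in every library of the lower tissue. The comparison, the rule and the alternatives were chosen with earlier results of these data known. Gene lists by symbol were prepared and could not be used, since 0 of 26681 identifiers are held by the reference table of 39307 cat genes. Intervals and floors cover counting error only.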

Additional observations from a re-analysis of the deposited data

Results flagged for a closer look

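The difference between LV and SKM at sham 1 month differed from that at sham 4 months in 1211 genes by the test of that difference with edgeR, and for ENSFCAG00000004613 by a log2 value of -2.37 (adjusted p 0.0351). In SKM it had 11.5 to 20.4 CPM at sham 1 month, against 2.03 to 7.50 CPM at sham 4 months, with the libraries of each time scaled apart.

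In 36 sets of 5 libraries, the shares of counts and the levels of the named genes were examined for a library far from the others (Dixon's 95% critical value), which chance alone flags in about 5% of sets, and 2 were found. Both concern ENSFCAG00000004613 in SKM. Library 2 of sham 4 months had 7.50 CPM, where the next highest had 3.06 CPM, and library 4 of banded 4 months had 3.46 CPM, where the next highest had 2.20 CPM.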

How the results depend on the processing

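With libraries scaled by totals alone, 7189 genes were called and 2819 beyond 2-fold, and 68 genes were restricted to LV and 47 to SKM, which turns their order. With 1 library left out, the counts ran from 2853 to 7100 genes called, 1263 to 2745 beyond 2-fold, 50 to 66 restricted to LV, 74 to 95 restricted to SKM, 661 to 2086 for the change of the tissue difference against sham 4 months and 0 to 276 against banded 1 month. The share of counts in the 10 most abundant genes stayed lower in LV, by -15.99 to -12.6 percentage points. Repeated calls with 1 library left out were counted after seeing the data. They ran from 2535 to 5292 at sham 4 months, 2689 to 5376 at banded 1 month and 2503 to 5230 at banded 4 months. The lowest were out of 2853 genes called without SKM library 2, and the highest out of 7100 called without LV library 2. Of the 1737 calls beyond 2-fold with all libraries, 1547, 1642 and 1530 were repeated in the same order. At 5 CPM or more in the higher tissue, 16 genes were restricted to LV and 40 to SKM. At most 0.05 CPM in the lower tissue left 18 for LV and 52 for SKM, and 0 counts there left 18 and 33. For LV these 2 cut-offs are the same, since 1 count in an SKM library is already above 0.05 CPM. The fit without the groups not compared gave 690 genes against sham 4 months, and DESeq2 gave 13 against banded 1 month. Stricter cut-offs and the shorter list of calls beyond 2-fold lower their counts by construction. Leaving a library out loosens the criterion for restricted genes, which every library must pass, and so tends to raise their number. The cause of the other moves was not tested.

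LV and SKM libraries carry the same numbers, and whether they mark pairs was checked by correlating each library's deviations from its group mean. The correlation of same-numbered libraries was 0.0821, -0.0262 and 0.0818 for numbers 1, 2 and 3, under the 0.1 asked of every pair, and 2 of the 3 libraries of each tissue correlated best with their own number. With the library number as a replicate block, 4291 genes were called, 2154 higher and 2137 lower in LV, and 1722 beyond 2-fold. The block gave 1101 genes against sham 4 months and 1 against banded 1 month, and 3756, 3960 and 3669 repeated calls. With 3 libraries a tissue, the median SE was 0.30 on the log2 scale, beside a median size of the tissue difference of 0.64.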
